A study of Mus musculus with 8 samples.

Results

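Dense clusters of C/EBPα binding were defined in wild-type (WT) mouse bone marrow progenitors as stretches of the genome where 5 or more bound regions followed one another closely. Overlapping peaks (1 bp or more) of the 6 anti-C/EBPα libraries made up 259446 merged regions, and the autosomal regions with a peak in both WT libraries were kept, which left 30690. Neighbouring kept regions with a gap of at most 12.5 kb were joined into 16499 blocks, and the 1016 blocks with at least 5 regions (6.16% of the joined blocks) are called dense blocks here. They held 6755 member regions, 22.01% of the 30690. The blocks were chosen by the WT peak calls, so the number, size and WT strength of the blocks are descriptions. The DC and DE libraries had no part in the choice, except through the merging. Their peaks helped to set the edges of the merged regions and could fuse WT peaks into 1 region. With only the WT lists merged, there were 1061 dense blocks, with 7115 of 31053 regions.

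CUT&RUN recorded the binding: an antibody tethers a nuclease to the protein in intact nuclei, and the DNA released around it is sequenced. The cells were Lin- KIT hi-int FLT3+ progenitors sorted from mouse bone marrow. Their genotype at the Zeb2 -165 kb enhancer was WT, DC or DE, in the labels' names, and the labels say nothing more on the alleles. The header of the merged peak table calls the variants D123 and DE234 and does not explain these names. There were 2 anti-C/EBPα libraries for every genotype, replicate 1 from batch 1 and replicate 2 from batch 2. Every anti-C/EBPα library had 3 µL of antibody, 30 min of digestion and 14 PCR cycles. The 2 IgG libraries of WT cells were not analysed here, so no background was measured in a control antibody. Whether IgG served as the control in peak calling is not given in the sources used here, so the local background behind each fold may come from the library itself or from IgG. Whether replicates stem from separate animals is not in the labels, and p-values then measure only the spread between these libraries, which may be technical. CUT&RUN reports binding and not expression, so the sorted identity of the cells could not be checked against marker transcripts.

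C/EBPα is a basic leucine zipper transcription factor that binds DNA as a dimer and is needed for the step from early progenitors to granulocyte and monocyte precursors. Lineage factors often bind many nearby sites around genes that mark a cell's fate, and such clusters of sites are frequently enhancers that act on the same gene. ZEB2 is a zinc finger repressor that takes part in the choice between dendritic cell and other myeloid fates.

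Promoters that member regions met give a view of the sequence inside the blocks. The 250 bases before the start of a gene are printed for genes of the largest blocks (Tnf, Ddx39b, Irak2 and Ccl3) and for Mpo, S100a8 and S100a9, granulocyte genes chosen after their values were seen. Sequences and coordinates are from RefSeq, build GRCm38.p6, read 5′ to 3′ on the strand of the gene. Capitals mark matches to TTGCNNAA (C/EBP) or GAGGAAGT (PU.1, a partner factor of the myeloid lineages) on either strand.

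Tnf promoter, chr17:35202008-35202257, minus strand: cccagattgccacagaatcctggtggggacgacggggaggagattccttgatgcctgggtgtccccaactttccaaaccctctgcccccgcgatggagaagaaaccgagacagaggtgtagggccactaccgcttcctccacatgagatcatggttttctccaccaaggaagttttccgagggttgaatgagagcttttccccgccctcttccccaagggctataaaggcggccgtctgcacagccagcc

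Ddx39b promoter, chr17:35241496-35241745, plus strand: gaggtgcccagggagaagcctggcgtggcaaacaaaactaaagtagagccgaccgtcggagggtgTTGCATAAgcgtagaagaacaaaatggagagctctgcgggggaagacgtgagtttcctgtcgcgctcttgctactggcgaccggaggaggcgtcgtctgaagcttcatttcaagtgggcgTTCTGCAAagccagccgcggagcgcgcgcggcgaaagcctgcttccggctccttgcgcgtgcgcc

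Irak2 promoter, chr6:113638217-113638466, plus strand: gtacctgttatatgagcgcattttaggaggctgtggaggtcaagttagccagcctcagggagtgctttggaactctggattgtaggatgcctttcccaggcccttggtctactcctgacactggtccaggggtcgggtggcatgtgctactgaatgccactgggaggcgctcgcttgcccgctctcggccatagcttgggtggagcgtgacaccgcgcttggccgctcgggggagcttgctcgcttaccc

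Ccl3 promoter, chr11:83649379-83649628, minus strand: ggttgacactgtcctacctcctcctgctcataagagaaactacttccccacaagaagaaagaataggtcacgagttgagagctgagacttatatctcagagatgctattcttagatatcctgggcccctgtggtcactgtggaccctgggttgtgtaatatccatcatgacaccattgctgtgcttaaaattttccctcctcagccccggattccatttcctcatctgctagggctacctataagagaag

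Mpo promoter, chr11:87793534-87793783, plus strand: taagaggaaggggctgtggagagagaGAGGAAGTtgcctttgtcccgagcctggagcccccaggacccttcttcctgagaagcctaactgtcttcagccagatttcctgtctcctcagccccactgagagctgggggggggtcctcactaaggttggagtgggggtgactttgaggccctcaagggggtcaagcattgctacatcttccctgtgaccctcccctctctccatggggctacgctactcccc

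S100a8 promoter, chr3:90668821-90669070, plus strand: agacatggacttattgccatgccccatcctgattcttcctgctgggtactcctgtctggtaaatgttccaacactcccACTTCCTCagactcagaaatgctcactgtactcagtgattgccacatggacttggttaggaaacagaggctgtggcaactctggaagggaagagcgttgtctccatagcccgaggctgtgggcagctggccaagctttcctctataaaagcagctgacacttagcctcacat

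S100a9 promoter, chr3:90695722-90695971, minus strand: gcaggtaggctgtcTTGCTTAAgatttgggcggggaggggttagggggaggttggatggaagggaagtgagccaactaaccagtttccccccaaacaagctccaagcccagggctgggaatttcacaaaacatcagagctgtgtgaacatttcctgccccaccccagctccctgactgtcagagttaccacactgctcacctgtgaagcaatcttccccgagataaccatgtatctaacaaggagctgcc

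Of these 7 stretches, Ddx39b held C/EBP matches at bases 66 and 186, counted from the first printed base, and S100a9 held 1 at base 15. PU.1 matches stood at base 27 of the Mpo promoter and at base 79 of the S100a8 promoter. The Tnf, Irak2 and Ccl3 stretches held neither motif, which says only that these letters are not in the window. Over promoters of 300 bases (250 before the start and 50 after), 12.8% of the 1015 promoters that a member region met held TTGCNNAA, against 11.2% of 5664 promoters that another both-WT region met and 10.9% of all 31396 autosomal promoters in the table. The shares for GAGGAAGT were 4.24%, 4.01% and 3.25% in the same order. For TGTGGTT (RUNX) they were 4.73%, 4.33% and 5.32%, and for TGANTCA (AP-1) 6.31%, 5.12% and 7.84%. Both strands were searched, and none of these motifs holds the letters of another. The promoters of dense blocks and of other bound regions thus held each motif at shares within a few points of each other, and no test was made.

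Dense blocks held a median of 6 regions, and the largest held 21. Their median length was 23.8 kb, from 4.11 to 86.9 kb, and the gaps inside them had a median of 3.04 kb. Regions covered a median of 12.3% of a block, so most of a block was sequence with no called peak. Larger blocks were rarer: 9902 blocks had 1 region, 710 had 4, 409 had 5, 508 had 6 to 9 and 99 had 10 or more. At the threshold, the blocks of 5 regions closest to the median length of their class were those at Sub1, Pdzd2 and Sik3, each 18.8 kb long. The matching blocks of 4 regions, at Mgst2, Bmt2 and Dusp4, were 14.6, 14.5 and 14.6 kb long and fell outside. 

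**Figure D1:**
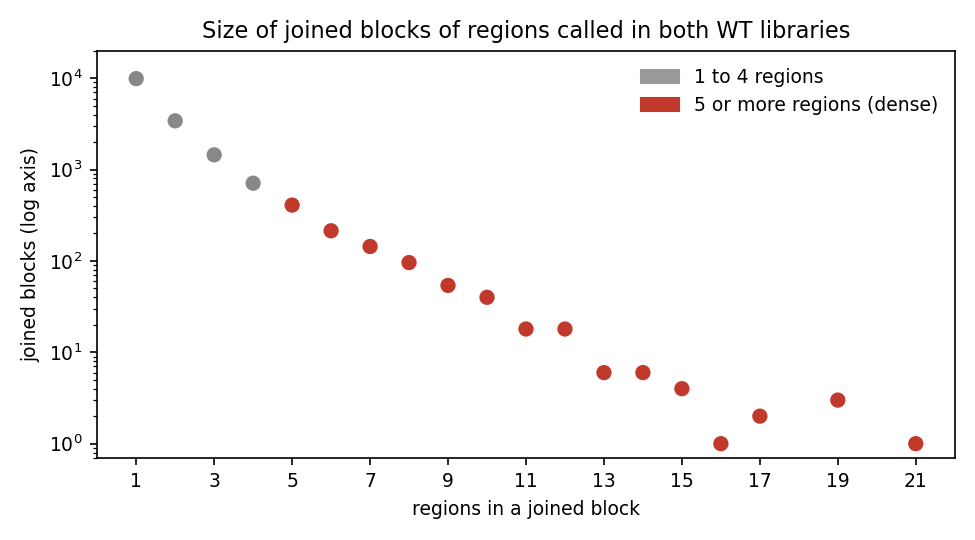
Number of joined blocks (vertical log axis) by the number of both-WT regions they hold (horizontal axis), 1 point per block size, with the 1016 dense blocks in red. The points fall without a break at the threshold of 5 regions, from 710 blocks of 4 regions to 409 of 5.

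Most dense blocks lay on genes. Of the 1016, 826 (81.3%) overlapped a protein-coding gene, against 61.1% of the blocks with a single region, which are far shorter. A region within 1 kb of a gene end was present in 593 (58.4%), while 30 blocks lay over 100 kb from any protein-coding gene. Gene ends, gene bodies and distances here are those of protein-coding genes alone. Member regions themselves were less often close to a gene end than other both-WT regions, 16.4% against 23.1%, and more often between genes, 41.9% against 36.7%. The remaining 41.7% of member regions and 40.2% of other regions were inside a gene. The share near gene ends went down with block size, from 25.2% of regions that stood alone to 13.7% of those in blocks of 10 or more.

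Neutrophil and monocyte genes stood next to dense blocks more often than any other list examined. Within 10 kb of the gene body, 18 of 29 (62.1%) had a dense block, where 1665 of all 20661 autosomal protein-coding genes (8.06%) did. They included Mpo and Elane, which encode granule enzymes, S100a8 and S100a9 (calprotectin), Ncf1 and Ncf4 of the phagocyte NADPH oxidase, Csf1r, the receptor of macrophage colony-stimulating factor, and Lyz2 (lysozyme). Csf3r, Camp, Lcn2, Ccr2 and Ly6c2 were among the 11 with none. The lists were chosen with earlier results of these data known, so the shares are descriptions beside the 8.06%.

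Genes of cell movement and of signal control came next. A dense block was near 16 of 29 actin, adhesion and migration genes (among them Itgal, Itgb2, Rac2 and Vav1), 15 of 30 signalling feedback genes (Socs3, Dusp6, Zfp36, Cish) and 14 of 30 lipid mediator and innate signalling genes (Tnf, Irak2, Syk, Alox5). It was near 12 of 28 cytokine receptor genes (Il17ra, Tnfrsf1b, Ifnar1, Il6ra). Of 25 myeloid transcription factor genes, 10 had one: Nr4a1, Irf1, Nfe2, Gfi1, Spi1, Rara, Cebpb, Bach1, Runx2 and Cebpe. Cebpa, Irf8, Klf4 and Zeb2 were among the 15 without.

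Lists of other fates had fewer. Of 20 stem and progenitor genes 5 had a dense block (Myb, Etv6, Fli1, Myc and Erg), and Kit and Flt3, whose proteins were used to sort the cells, had none. Among dendritic cell genes the count was 4 of 13 for cDC2 (Ltb, Clec12a, Sirpa and Notch2), 2 of 14 for pDC (Tlr9 and Runx2) and 2 of 15 for cDC1 (Xcr1 and Wdfy4). Only 1 of 15 B lymphoid genes (Dntt), 1 of 15 T and NK genes (Klrb1c) and 1 of 13 housekeeping genes (Actb) had one. None of 14 erythroid and megakaryocyte, 10 mast, basophil and eosinophil and 20 non-haematopoietic genes did. These counts depended on the window. Within 50 kb they were 6 for cDC1, 4 for erythroid and megakaryocyte and 4 for housekeeping genes. They were 7 for stem and progenitor, 4 for cDC2, 3 for pDC, 2 for B lymphoid and 2 for T and NK genes. The last 2 lists stayed at 0, and 2956 of all 20661 genes had a block within 50 kb.

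**Figure D2:**
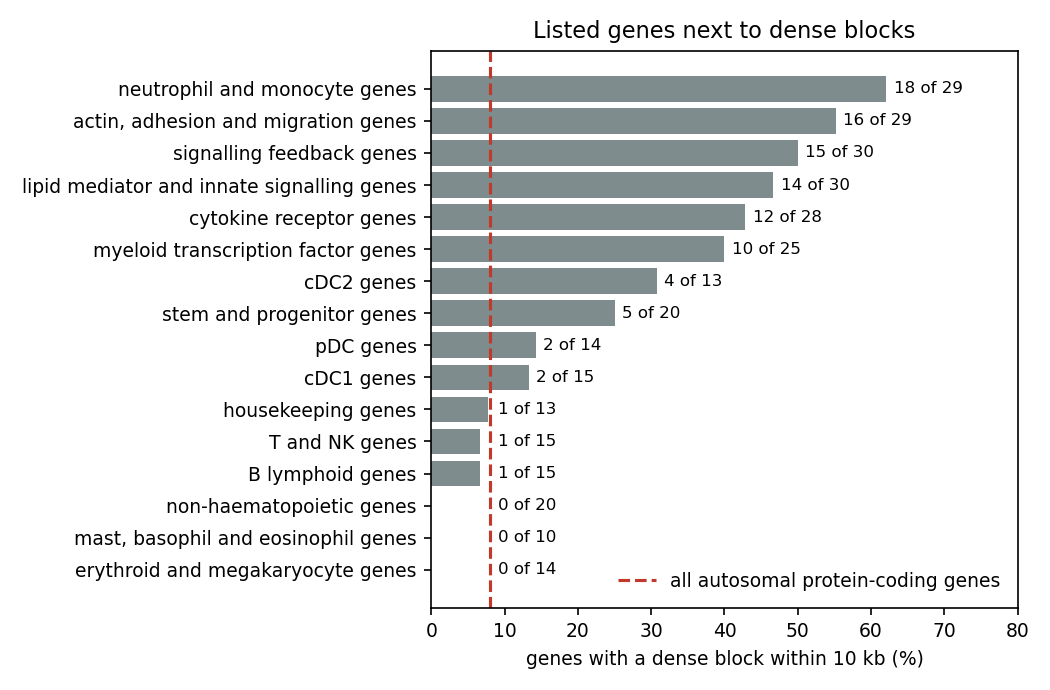
Share of autosomal genes on each list with a dense block within 10 kb of the gene body (bars, with counts), beside the share over all autosomal protein-coding genes (dashed line, 8.06%). Bars run from 62.1% for neutrophil and monocyte genes to 0% for erythroid and megakaryocyte, mast, basophil and eosinophil, and non-haematopoietic genes.

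The block with the most regions, 21 over 86.9 kb (chr17:35188134-35275007), spanned the tumour necrosis factor genes Tnf, Lta and Ltb together with Lst1, Nfkbil1, Atp6v1g2, Ddx39b and part of the histocompatibility gene H2-D1. Irak2, a kinase of interleukin-1 and Toll-like receptor signalling, carried 19 regions over 75.2 kb (chr6:113622157-113697324). The chemokine genes Ccl3 and Ccl4 carried 19 over 70.6 kb (chr11:83593375-83663947). Tgm2, a transglutaminase, carried 17 (chr2:158133064-158189780), and Ccr1, a chemokine receptor, carried 16 (chr9:123927916-123980128). The block over B4galnt4, Ifitm3 and Ifitm6 and the block over Lif and Osm, a pair of cytokines of the interleukin-6 family, had 15 regions each, as did the block over Pgs1 and Socs3. Not all of the largest blocks lay on a protein-coding gene. The one nearest to Tomm20 (chr8:126826464-126909189) had 19 regions and ended 21.5 kb from it, and one of 14 regions lay 111 kb from Uaca. Regions of the latter met promoters of other annotated genes, such as Gm5122 and Gm33699.

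Binding within a block was uneven. Strength was read as the summit pileup, that is, how many fragments lie over a peak's highest point, solved from the fold and p-value of each peak and scaled between libraries. In the Tnf block, the region inside Tnf had a pileup of 221 and 221 fragments in WT, while DC had 272 and 112 and DE had 222 and 154, before scaling, while the region at the Tnf start had 26 and 36, 21 and 15, and 30 and 15. The strongest region of the Tgm2 block, 6.47 kb from D630003M21Rik, had 505 and 370 fragments in WT, and the weakest in WT replicate 1 had 12. In both blocks a few strong regions stood among many weak ones.

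Member regions were somewhat stronger than the other both-WT regions in all 6 libraries. The median pileup of member against other regions was 30 against 26 and 31 against 26 in WT, 49 against 44 and 24 against 21 in DC, and 41 against 36 and 29 against 26 in DE. These medians cover only regions called in the library, so regions lost from a DC or DE library are left out of its values. The local background, relative to the smallest value in its library, was also higher at members, for example 1.99 against 1.69 in WT replicate 2 and 2.37 against 1.76 in DC replicate 2. Whether that background takes part in the difference was not tested. The files give no read totals, so depth is unknown, and the pileup mixes depth with enrichment.

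Both variants kept most of the member regions. A peak was called at 96.2% and 84.6% of the 6755 regions in DC and at 87.4% and 91.7% in DE. Among the other 23935 both-WT regions, DC called 95.5% and 82.5% and DE 86.3% and 90.5%. Mean shares were 90.4% ± 8.20 (SD, n = 2) in DC and 89.6% ± 3.05 (SD, n = 2) in DE, a difference of 0.859 points that was smaller than the spread between replicates (exact two-sided permutation test, p = 1.0, with 0.333 the smallest p that 2 against 2 allows). The libraries overlapped, since DC held both the highest and the lowest share. The DC library with the lowest share, replicate 2, also had the lowest median pileup over regions called in every library, 24 against 32 to 58 in the others. The DC library with the highest share, replicate 1, had the most peaks, 169943 against 50221 to 82080 in the others. The part of pileup and of peak number in the shares was not tested.

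Both DC libraries called 5654 member regions (83.7%) and both DE libraries 5662 (83.8%), against 81.3% and 82.3% of the other regions. All 4 variant libraries called 5225 (77.4%), and 92 (1.36%) were called in none. These margins over other regions went with strength. Split by the mean WT pileup into 4 equal classes, members were called in both DC libraries at 50.0% in the weakest class and 99.7% in the strongest, and the other regions at 51.9% and 99.5%. For DE the values were 48.9% and 100% in members and 51.9% and 99.6% in the others. Of the members, 30.7% fell in the strongest class and 20.6% in the weakest, and within the 3 weaker classes the members' share lay below that of the others in both variants. The shares also rest on having both WT libraries. With the blocks drawn from WT replicate 2 alone, both DC libraries called 63.4% of members and both DE libraries 61.2%. The other regions then gave 50.1% and 48.4%. From WT replicate 1 alone the shares were 53.0% and 53.3% of members, and 27.8% and 28.2% of the others. The members' margin was thus wider with either WT library alone, and whether it went with strength there was not tested.

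**Figure D3:**
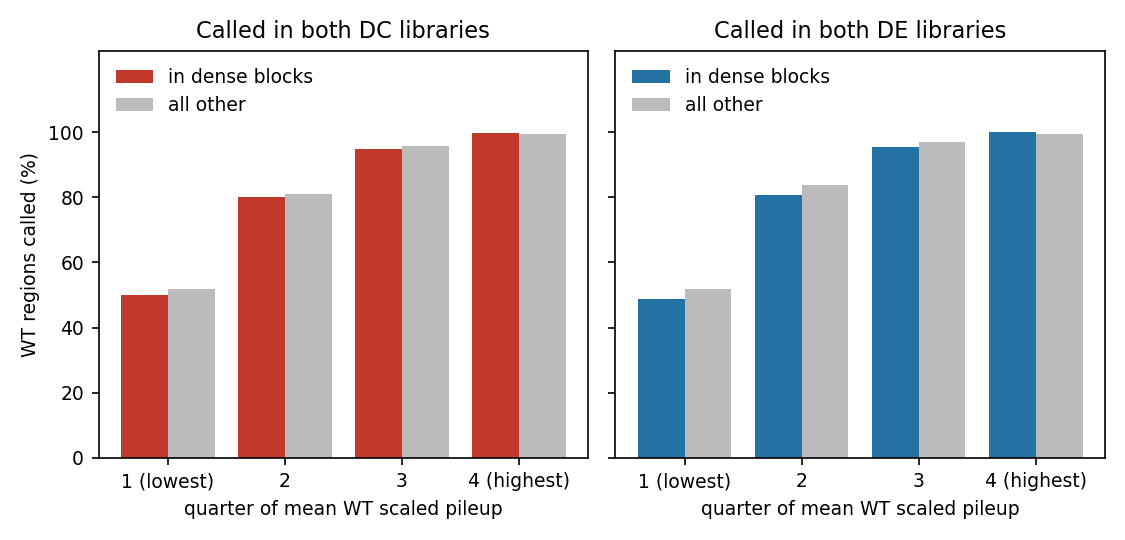
Percent of both-WT regions called in both DC libraries (left) and both DE libraries (right), in 4 equal classes of the mean scaled WT pileup (horizontal axis), with coloured bars for regions in dense blocks and grey bars for all others. Bars rise from about equal shares near 50% in the weakest class (50.0% and 51.9% for DC) to 99.7% and 99.5% in the strongest.

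No block lost all of its regions, which was unlikely from the start with 5 or more regions per block and 77.4% of members called in all 6 libraries. Every one of the 1016 kept at least 1 region that was called in all 6 libraries, and 1011 kept at least 2. All regions were called in both DC libraries for 334 blocks, in both DE libraries for 338 and in all 4 for 204. Under 50% of the regions were kept in 24 blocks in DC and 23 in DE, 7 of them in both. The least kept in DC were the blocks at Plekho1 (1 of 6 regions) and Angpt1 (1 of 5), followed by Cyth1 (2 of 6), Lrp1 (3 of 9) and Cstad (2 of 5). In DE they were Marcksl1, Stat6, Foxp1 and Plekho1 with 2 of 6 each and Wnt6 with 3 of 8. The regions lost at Plekho1 were weak in WT, with 7 to 31 fragments in WT replicate 1 and 8 to 17 in replicate 2.

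Regions at gene ends were kept most often. Members within 1 kb of a gene end were called in both DC libraries at 88.6% and in both DE libraries at 86.2%, members inside a gene at 82.0% and 83.2% and members between genes at 83.5% and 83.5%. Other both-WT regions had the same order for gene ends, with 87.7% in DC and 84.9% in DE there against 79.3% and 81.0% inside genes and 79.5% and 82.1% between them. Block size moved them by about a point: blocks of 5 regions kept 83.3% in DC and 82.9% in DE, and blocks of 10 or more 83.9% and 84.0%. Near listed genes, members called in both DC libraries numbered 68 of 77 for neutrophil and monocyte genes, 49 of 53 for myeloid transcription factor genes and 33 of 41 for stem and progenitor genes. In both DE libraries the counts were 67, 49 and 33.

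The same rule applied to the variants gave 1305 dense blocks in DC and 1093 in DE. Of the WT blocks, 799 (78.6%) met a DC block and 761 (74.9%) met a DE block, and 141 met neither. Seen from the variants, 61.3% of the DC blocks and 69.6% of the DE blocks met a WT block. More regions were called in both DC libraries (35516) and both DE libraries (32767) than in both WT libraries (30690), and the numbers of blocks followed that order. The libraries differed in peak number, with 169943 in DC replicate 1 against 50221 to 82080 in the others. Its part in these counts and shares was not tested.

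Relative to the median of all regions, which the scaling sets close to 0, most blocks differed little from WT. Strength was compared with limma on log2 scaled pileups at the 23480 regions called in all 6 libraries, which hold 5225 members, and p-values were adjusted by Benjamini-Hochberg over all regions. Regions lost from a variant are therefore outside this comparison. DC and DE were each compared with the same WT libraries, so their differences from WT are not independent. These WT libraries also chose the blocks, and only the comparison of DC with DE uses none of them. The part of that choice in the members' rises and falls against WT was not tested. The median log2 difference from WT of member regions was -0.08 in DC and -0.04 in DE, beside -0.02 and -0.00 over all regions tested. Averaged over their regions, 92.5% of the dense blocks lay within 0.5 log2 units of WT in DC and 96.2% in DE, and 97.7% differed by less than that between DC and DE.

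Without a batch term, none of the member regions passed an adjusted p of 0.05 in any comparison, nor did any other region (0.0% of 23480). At an unadjusted p under 0.05 there were 439 members (8.40%) for DC against WT, where all regions gave 7.99%, 247 (4.73%, all regions 4.87%) for DE against WT and 126 (2.41%, all regions 2.38%) for DC against DE. With batch as a term, which the labels provide, 133 member regions rose and 99 fell in DC. Those are 2.55% and 1.89% of the members, against 3.15% and 1.17% of all regions. In DE 30 rose and 22 fell, 0.574% and 0.421% of the members against 1.12% and 0.264% of all regions. Scaling by the background floor instead moved the median of all regions to 0.84 in DC and 0.55 in DE and that of the members to 0.78 and 0.51, and with it 111 member regions rose and 0 fell in DC and none changed in DE. The count of changed members in DC, 232, was 60 without WT replicate 2, and 53 or 36 when DC replicate 1 or 2 was left out, and that in DE, 52, was 16 without WT replicate 2, 32 without DE replicate 1 and 22 without DE replicate 2. Rises and falls below are relative to the median of all regions, with the batch term, and no fall kept its call under the floor scaling.

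Most changed regions stood alone in their block. The 133 that rose in DC were spread over 120 blocks, of which 9 held 2 or more, and the 99 that fell over 85 blocks, of which 11 held 2 or more. In DE the 30 that rose lay in 26 blocks and the 22 that fell in 22 blocks. As whole blocks, tested over 13522 joined blocks of any size, 1 of the 1016 dense blocks passed in DC against WT (rose; 1.34% of all blocks rose and 0.155% fell), and 0 passed in DE against WT (all blocks 0.422% and 0.037%) or in DC against DE (0.0%). Without the batch term 0 passed. At an unadjusted p under 0.05 there were 22, 12 and 4 dense blocks in the 3 comparisons. Those are 2.17%, 1.18% and 0.394% of the dense blocks, where all blocks gave 8.56%, 5.55% and 2.74%. The unweighted fit draws on the spread of blocks of any size, many with 1 region, while a dense block averages several. What this does to the dense blocks' p-values was not tested, so few calls do not show that dense blocks are stable. Weighting blocks by their number of regions, a setting chosen after seeing the data, called 27 dense blocks up and 56 down in DC. Those are 2.66% and 5.51% of the dense blocks, against 3.45% and 1.58% of all blocks. In DE it called 9 up and 18 down (0.886% and 1.77%, all blocks 1.37% and 0.333%). In DC against DE it called 2 up and 1 down (0.197% and 0.0984%, all blocks 0.0222% each). The weights count neighbouring regions as independent, which they are not, so the weighted p-values may be too small. The WT libraries that chose the dense blocks also enter both comparisons with WT. Whether that takes part in the excess of falls over all blocks was not tested.

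The dense block that passed in DC with batch lay over S100a9, 36.6 kb with 6 regions (chr3:90659487-90696082), and held the S100a8 and S100a9 promoters printed above. S100A8 and S100A9 form calprotectin, an abundant protein of neutrophils and monocytes. Averaged over the 5 regions called in all libraries, its scaled pileup was 41.0 and 54.8 in the WT libraries, against 103 and 134 for DC and 83.8 and 97.6 for DE. Both variants were above both WT libraries, and DC was above DE in both batches. The log2 difference from WT was 1.31 ± 0.19 (SE) in DC (limma with batch, adjusted p = 0.0138) and 0.93 ± 0.19 in DE (adjusted p = 0.0777), and without batch the adjusted p was 0.26 and 0.727. Leaving out DC replicate 2 gave an adjusted p of 0.0537 for DC, and the other 5 omissions kept the call. Without DE replicate 1 or 2, 6 or 7 dense blocks passed for DC in place of 1.

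The change was not even over the block. At the region on the S100a9 start, the scaled pileup was 19.2 and 67.2 in WT, with 122 and 178 for DC and 68.6 and 100.8 for DE, a log2 difference of 2.03 ± 0.27 (SE) in DC (limma, adjusted p = 6.47e-08) and 1.21 ± 0.27 in DE (adjusted p = 0.00474). The WT libraries differed from each other by more than 3-fold there, and DE replicate 1 was barely above WT replicate 2. The region 9.70 kb from S100a9 went from 31.3 and 43.1 in WT to 136 and 118 for DC and 81.1 and 108 for DE. The region on S100a8 stayed in the WT range or near it, with 62.6 and 102 in WT, while DC had 66.1 and 118 and DE had 77.0 and 108 (log2 0.15 ± 0.25 in DC, adjusted p = 0.841). In all, 4 of the 5 regions tested rose in DC and 3 in DE, and without DE replicate 2 the one 9.70 kb from S100a9 no longer passed in DE.

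**Figure D4:**
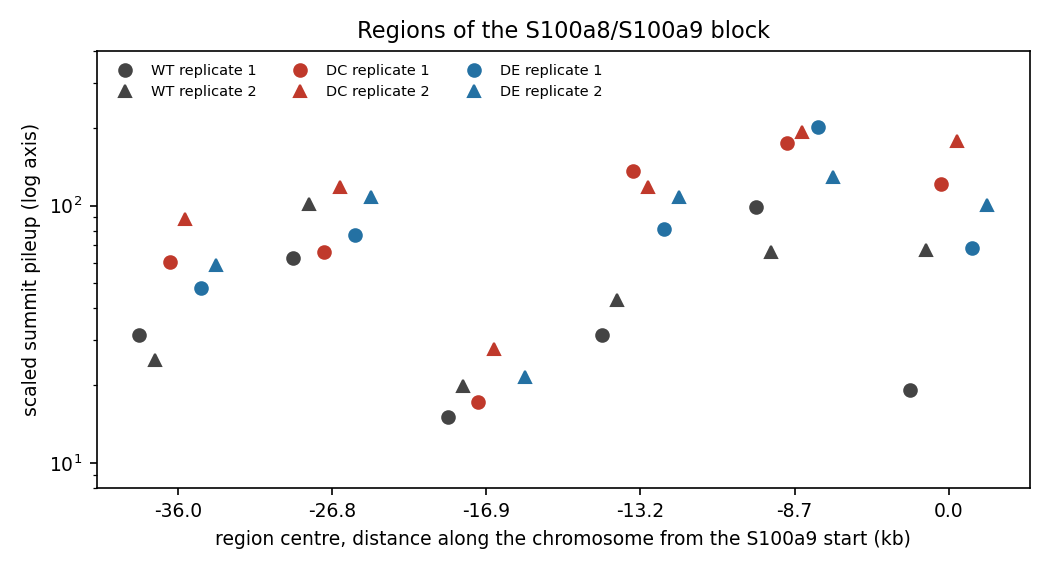
Scaled summit pileup (vertical log axis) in each library at the 6 regions of the S100a8/S100a9 block, ordered by the distance of their centre from the S100a9 start (horizontal axis, kb, not to scale), with circles for replicate 1 and triangles for replicate 2. DC and DE points lie above both WT points at -36.0, -13.2, -8.7 and 0.0 kb, while at -26.8 kb, on S100a8, they mix with WT, and 1 DE point is absent at -16.9 kb, where no peak was called.

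A second block with several rises lay at Gm46963, a predicted gene (chr6:86570839-86620590, 9 regions). Its mean was 46.8 and 47.4 in WT, with 80.9 and 76.8 for DC and 68.2 and 73.7 for DE, with no overlap between WT and the variants. The log2 difference was 0.74 ± 0.20 (SE) in DC (adjusted p = 0.0956) and 0.59 ± 0.20 in DE (adjusted p = 0.262), so the block as a whole did not pass. Its 4 regions inside the gene rose in DC, the one with the largest change from 14.1 and 13.7 in WT to 76.6 and 92.0, and 3 of them rose in DE. The regions outside the gene did not pass in either variant. At Sgms1, a sphingomyelin synthase, the block's mean was 19.9 and 18.1 in WT, while DC had 32.2 and 30.0 and DE had 31.5 and 29.9 (adjusted p = 0.208 and 0.332).

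The smallest adjusted p among single regions that rose in DC belonged to the region inside Gm46963 above, followed by the S100a9 start. Next came a region within Bco2, in the block that also holds the cytokine gene Il18. It went from 13.1 and 15.8 in WT to 72.9 and 76.7 for DC and 41.0 and 52.1 for DE (log2 2.38 and 1.68, limma adjusted p = 1.99e-07 and 0.000688). A region 16.0 kb from Zfp36l2, which encodes an RNA-decay protein, went from 16.1 and 15.8 to 77.2 and 72.1 in DC and 61.9 and 46.4 in DE. One 2.67 kb from Stat6, the signal transducer of interleukin-4, went from 18.2 and 21.0 to 77.8 and 92.0 in DC and 40.1 and 38.5 in DE. Regions inside Stard5 (limma adjusted p = 4.71e-06) and Pxn (5.44e-06, not passed without DC replicate 1) also rose in DC. The Bco2, Zfp36l2 and Stat6 regions were weak in WT, below the median pileup of member regions in both libraries. The Bco2 region no longer passed in DE without DE replicate 2, nor did the Zfp36l2 region without DE replicate 1. In DE the smallest adjusted p belonged to a region 0.579 kb from Med29, near the feedback gene Zfp36, with 19.2 and 22.1 in WT, with 87.7 and 49.1 for DC and 74.4 and 80.4 for DE (adjusted p = 2.30e-05). Regions at Stard5, Ugt1a10, Zfp169 and 25.2 kb from Tlr2 were among the others that rose in DE. The Ugt1a10 region no longer passed without DE replicate 2, nor did the Zfp169 region without DE replicate 1.

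Some blocks were lower in both variants without passing as a whole. Tnfaip2, a gene induced by tumour necrosis factor, had a block that was lower in every variant library (chr12:111430484-111444655, 6 regions, all called in every library). Its mean was 37.9 and 43.7 in WT, while DC had 21.0 and 20.5 and DE had 21.2 and 21.5. The 4 variant libraries lay close together and below both WT libraries, and all 6 regions were lower in DC. The log2 difference was -0.97 ± 0.26 (SE) in DC (limma with batch, adjusted p = 0.1) and -0.93 ± 0.26 in DE (adjusted p = 0.192), so neither passed as a block, and 2 of its regions, inside Exoc3l4 and 0.478 kb from Tnfaip2, fell in DC. Tnip1, a feedback inhibitor of NF-κB, had 61.9 and 57.5 in WT, with 42.6 and 32.4 for DC and 39.1 and 34.4 for DE, again without overlap (adjusted p = 0.164 and 0.24).

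Single regions that fell in DC lay at genes of several kinds. Myo18a, a myosin gene, held the one with the smallest adjusted p, which fell by 1.82 on the log2 scale (limma adjusted p = 4.19e-06). A region 4.19 kb from the chemokine gene Ccl5 had 52.5 and 86.1 in WT, while DC had 17.3 and 13.8 and DE had 25.9 and 30.6 (log2 -2.12 and -1.26 in the 2 variants, adjusted p = 1.64e-05 in DC). A region inside Irak2 had 76.7 and 70.4 in WT, with 31.5 and 15.3 for DC and 40.1 and 37.4 for DE (adjusted p = 0.000154 in DC), and it was the only one of the 17 tested regions of that block to fall. Without DC replicate 2 it no longer passed (adjusted p = 0.157). In Cd82, a tetraspanin gene, a region fell by 2.05 on the log2 scale, in Lpp one fell by 1.41, and one 0.84 kb from Id1 fell by 1.84, which no longer passed without WT replicate 2. In DE a region 1.41 kb from Il1a, an interleukin-1 gene, had 27.2 and 30.5 in WT, while DC had 10.5 and 9.20 and DE had 7.53 and 4.53 (log2 -2.30, adjusted p = 0.00039), and it fell in both variants. Without WT replicate 2 or DE replicate 2 the Il1a region no longer passed in DE, and the Cd82 region no longer passed in DC without WT replicate 2 or DC replicate 2.

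None of the 15 blocks with the most regions passed as a whole in the unweighted fit with batch. Weighted by their number of regions, the Irak2 block passed in DC (limma adjusted p = 0.000334) and the Pgs1 block in DC (0.00356) and DE (0.0451), all as falls. These weighted p-values count the regions of a block as independent and may be too small. In the Tnf block, the mean was 47.4 and 65.3 in WT, with 45.0 and 54.2 for DC and 50.1 and 54.5 for DE, and 2 of its 17 tested regions rose and 1 fell in DC. For Ccl4 the values were 45.8 and 38.4, 38.7 and 36.9, and 43.1 and 39.9. Ccr1 gave 47.8 and 49.3, 54.7 and 53.1, and 55.7 and 57.3. Tgm2 stayed between 38.5 and 41.1 in all 6 libraries. Irak2 was lower in both variants (49.1 and 54.3 in WT, 38.0 and 39.6 in DC, 46.0 and 44.1 in DE), with an adjusted p of 0.392 for DC.

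**Figure D5:**
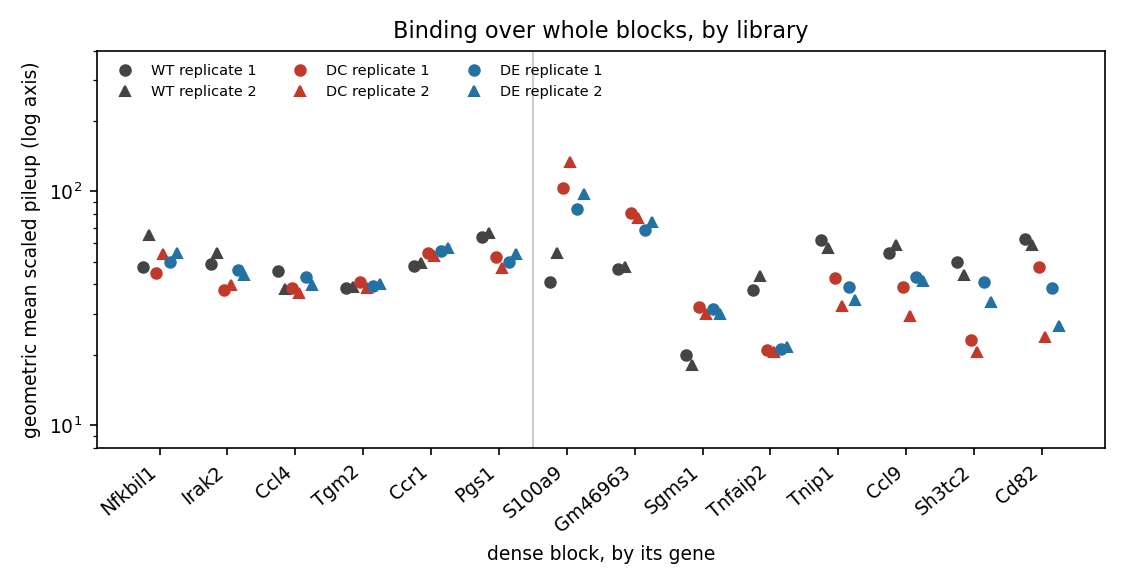
Geometric mean scaled pileup (vertical log axis) over the regions called in all 6 libraries, by library, for 6 of the largest blocks (left of the line) and 8 others named by their p-values (right), with circles for replicate 1 and triangles for replicate 2. The Tgm2 points lie within 38.5 to 41.1, the S100a9 and Gm46963 blocks have both variants above WT, and in the Tnfaip2 block all 4 variant points lie near 21 and below both WT points.

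Changed members near listed genes were counted beside the shares over all regions, 3.15% risen and 1.17% fallen in DC and 1.12% and 0.264% in DE. Of 64 tested member regions near neutrophil and monocyte genes, 5 rose and 3 fell in DC and 3 rose and 1 fell in DE, with 4 and 3 of the rises in the S100a9 block. The falls were at Ncf4, Ncf1 and Cx3cr1 in DC and at Ncf1 in DE, the last of which no longer passed when any 1 of the WT and DE libraries was left out. One of 48 tested near myeloid transcription factor genes rose in DC (3.09 kb from Cebpe, log2 0.85 ± 0.23 SE, limma adjusted p = 0.0164), and none changed in DE. Of 43 near cytokine receptor genes and 9 near cDC1 genes none changed in either variant, which with so few tested is near the shares over all regions. In DC, 1 of 28 near stem and progenitor genes and the 1 tested near B lymphoid genes fell. Of 63 near signalling feedback genes 1 rose and 2 fell in DC, and 1 rose and 1 fell in DE. Of 68 near lipid mediator and innate signalling genes 1 rose and 2 fell in DC, and 2 fell in DE. Of 89 near actin, adhesion and migration genes 1 rose in DC and none changed in DE.

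Directly between the variants, a difference that uses no WT library, 2 of the 5225 member regions passed with the batch term, where 0.0213% of all regions fell and 0.00852% rose. Both were lower in DC than in DE. A region inside Xxylt1 had 21.6 and 10.7 in DC, 57.7 and 48.7 in DE and 41.4 and 25.2 in WT (log2 -1.80 ± 0.36 SE, limma adjusted p = 0.0317). One inside Rab7b, which encodes a GTPase of late endosomes, had 77.8 and 49.1 in DC, 186 and 97.4 in DE and 160 and 115 in WT (log2 -1.12 ± 0.24, adjusted p = 0.047). Neither passed without batch, and each lost its call when a library was left out, Xxylt1 without any 1 of the 4 DC and DE libraries and Rab7b without either DC library or DE replicate 1.

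The Zeb2 locus was not densely bound. Zeb2 and the 10 kb to either side met 4 joined blocks of 1 to 3 regions, and the nearest dense block lay 4294 kb from the gene. One of these, of 3 regions at chr2:45112055-45117583, kept 1 region in each variant, and the other 3 blocks kept all of theirs. Cebpa itself had a joined block of 2 regions, kept in all 4 variant libraries, and its nearest dense block lay 884 kb away. Cebpb, a related factor gene, had a dense block of 6 regions on it, and 9 further regions formed a dense block that began 50.4 kb from the gene (chr2:167740787-167778216). Its mean was 93.7 and 122 in WT, while DC had 72.9 and 71.5 and DE had 78.2 and 73.3, both variants below WT (limma adjusted p = 0.195 and 0.375).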

How the data were processed

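CUT&RUN peaks of 6 anti-C/EBPα libraries were analysed. The submitters' processing notes name mm10 as the build and list HOMER, MACS2 2.2.9.1, Bowtie2, Trimmomatic and SAMtools. The authors called peaks for each library, with a q of 0.1 in the deposited names. Each deposited peak has a fold enrichment (a ratio) over its local background, a −log10 p, a −log10 q value and a score that is 10 times the −log10 q, so values differ with depth, which is unknown. The deposited merged peak table, whose other column is a constant, matched all 259446 merged regions exactly.

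The summit pileup was solved from the deposited fold and p-value, and 99.99% of values came out whole within 5% of a fragment. Pileups were scaled by the median ratio over regions called in all 6 libraries. limma 3.58.1 (R 4.3.3) was fitted to log2 scaled pileups over all such autosomal regions, and to block means of them, without batch as the main design and with batch as an alternative. Calls needed a Benjamini-Hochberg adjusted p under 0.05. Same-numbered libraries share a batch, per the labels, and their deviations correlated (r = 0.51, 0.37 and 0.32 over members for the pairs of genotypes), so the numbers pair the samples. Scripts used Python 3.11.15, numpy 2.4.6, pandas 2.3.3, scipy 1.17.1 and matplotlib 3.10.9. The fit of regions with batch was run on simulated data, and the fit without batch and the block fits were not.

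Members and gene lists were chosen with earlier results of these data known. Of 328 list entries, 320 were autosomal and matched RefSeq names (GRCm38.p6). A block is named after the protein-coding gene it overlaps most, or the nearest one. Named were the 15 blocks with the most regions, the 5 longest, the 5 least kept in each variant, up to 4 for each list, up to 8 regions and 5 blocks for each comparison and direction by adjusted p, 3 blocks on each side of the threshold, and Zeb2 and Cebpa. Motifs were searched in promoters, and sequence under peak summits was not used here.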

Additional observations from a re-analysis of the deposited data

Results flagged for a closer look

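DC and DE, whose libraries are separate, differed at a pair of member regions in limma with the batch term. The Xxylt1 region had a log2 difference, DC against DE, of -1.80 (adjusted p = 0.0317), and the Rab7b region one of -1.12 (adjusted p = 0.047). Both differences had an adjusted p of 1.0 without the batch term.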

How the results depend on the processing

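The number of dense blocks and the share of regions in them follow the rule. With gaps of at most 5 kb there were 326 blocks with 6.14% of the regions, with 25 kb 1652 blocks with 42.6%, and with 10 or more regions per block 99 blocks with 3.79%. The share, 22.01% (95% Wilson interval 21.6 to 22.5), was 20.8% with peaks of q at most 0.01, 22.8% with summits within 200 bp and 22.9% with the union of the WT lists alone. That interval treats regions as independent, which neighbours joined in a block are not, and it measures no spread between libraries. Leaving out a WT replicate gave 2360 to 3011 blocks with 28.9 to 33.0% of the regions. With 1 WT replicate left out, both DC libraries called 53.0 to 63.4% of members (other regions 27.8 to 50.1%). Both DE libraries then called 53.3 to 61.2% (other regions 28.2 to 48.4%). With a DC replicate left out, the remaining DC library alone called 84.6 or 96.2% of members. With a DE replicate left out, the remaining DE library alone called 87.4 or 91.7%. The share kept in both DE libraries was 80.7% with summits within 200 bp. Genes with a block numbered 2956 within 50 kb.

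With the replicate block (batch), the counts of changed member regions were 232, 52 and 2 for DC against WT, DE against WT and DC against DE, and 1 dense block changed in DC. Each of these counts was 0 without it. The other settings were fitted with the block. For DC, scaling by the background floor gave 111 regions and 1 block, the deposited fold 56 and 1, and a mean pileup of at least 20 gave 236 and 2. For DE, the deposited fold gave 6 regions and the pileup minimum 57, and for DC against DE the pileup minimum gave 2. Leaving out 1 replicate (each of the 6 in turn) gave 36 to 295, 16 to 44 and 0 to 5 regions in the 3 comparisons, and 0 to 7 blocks for DC. A background under 5 times the floor, chosen after seeing the data, gave 206, 66 and 3 regions, and 12 blocks for DC and 2 for DE. Weighting blocks by their number of regions, also chosen after seeing the data, gave 83, 27 and 3 blocks. Where these settings differ, the cause was not tested. Depth is unknown, regions absent from a library were outside the tests, and neighbouring regions of a block are not independent.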
